A study of Homo sapiens with 4 samples.

Results

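Aminoacyl-tRNA synthetases are the enzymes that join each amino acid to the tRNA that carries it to the ribosome. They were examined in RNA-seq data of cells in which LDB1 (LIM domain-binding protein 1), an adaptor of a transcription complex that holds LMO2, had been knocked down. The synthetases were chosen by name, as the genes whose symbol is the letter of an amino acid followed by ARS, together with EPRS, FARSA and FARSB. This gave 37 of the 28412 genes in the table, of which 20 were cytosolic enzymes and 17, with a symbol ending in 2, were mitochondrial. All 37 passed the filter of a mean of at least 1 FPKM, as did 13300 genes in all. FPKM stands for fragments per kilobase per unit of depth, a level corrected for gene length and sequencing depth.

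RNA-seq was performed on 4 libraries of cells that the labels name NB4, a human promyelocytic leukemia line. The 2 sh-NC libraries came from cells with a lentiviral control vector, and the 2 sh-LDB1 libraries from cells with a lentiviral shRNA that targets LDB1. The labels give no time after infection and do not say which of the designed shRNAs was used, nor whether the replicates were separate cultures, so p-values measure only the spread between these libraries. Reads recovered from the FPKM numbered 14203143 to 16491848 per library, and a synthetase rested on 47 to 23442 of them. LDB1 was at 135.1 and 120.1 FPKM in sh-NC against 10.2 and 9.47 FPKM in sh-LDB1, a log2 fold change of -3.56 (SE 0.0765, limma adjusted p = 6.9e-05).

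The defining markers went against the NB4 label. ELANE, a protease gene of promyelocytes, was listed at 0 in 3 libraries. Of 7 promyelocyte markers, 5 were among the 28412 genes analysed here, namely ELANE, PRTN3, AZU1, CD33 and ANPEP. Those 5 summed to 4.21 and 3.81 FPKM in sh-NC against 11.8 and 9.96 FPKM in sh-LDB1. The 7 erythroid markers summed to 3219 and 3195 FPKM in sh-NC against 247 and 234 FPKM in sh-LDB1, and all 7 fell, with a median log2 fold change of -3.27. The synthetases therefore changed beside a large fall of erythroid transcripts, whose part in the result was not tested. In bulk RNA, fewer cells of a type and less RNA per cell cannot be told apart.

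Cells hold separate sets of synthetases for the cytosol and for the mitochondrion, and both sets are encoded in the nucleus. Some cytosolic synthetases are bound together with the scaffold proteins AIMP1, AIMP2 and EEF1E1 in the multi-synthetase complex, while the others work outside it. When a tRNA stays uncharged, the kinase GCN2 phosphorylates the initiation factor eIF2, and translation of the transcription factor ATF4 rises. Many cytosolic synthetase genes are known targets of ATF4, which binds C/EBP-ATF response elements (CARE), and MYC binds the E-box CACGTG in many genes of translation. Both factors were lower in sh-LDB1. MYC was at 159 and 161 FPKM in sh-NC against 27.3 and 28.1 FPKM in sh-LDB1, and ATF4 was at 138 and 133 FPKM in sh-NC against 99.4 and 103 FPKM in sh-LDB1 (log2 fold changes of -2.49 and -0.42, limma adjusted p = 6.8e-05 and 0.0013). ATF4 is set mostly by translation, so its transcript does not give its activity, and the part of either factor in the changes below was not tested.

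Promoters of 4 synthetases are shown, because they carry the motifs of these factors in genes that fell, or none of the motifs in the gene that rose most. They were chosen after the values and the motifs were seen, so their contrast is not a test of either factor. Each line is the 250 bases before the transcription start, 5′ to 3′ on the strand of the gene, from RefSeq on GRCh38.p14. Capitals mark TGATGNAA (the CARE core) or CACGTG (the E-box), both searched on either strand. IARS lies at chr9:92293698-92293947 (minus), YARS2 at chr12:32755898-32756147 (minus), MARS2 at chr2:197705119-197705368 (plus) and RARS at chr5:168486221-168486470 (plus).
IARS: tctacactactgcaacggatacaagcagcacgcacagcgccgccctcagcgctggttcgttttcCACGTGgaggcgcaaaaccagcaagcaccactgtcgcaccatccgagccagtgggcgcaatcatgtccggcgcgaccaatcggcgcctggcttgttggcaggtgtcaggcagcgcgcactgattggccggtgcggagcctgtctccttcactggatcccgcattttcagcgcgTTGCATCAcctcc
YARS2: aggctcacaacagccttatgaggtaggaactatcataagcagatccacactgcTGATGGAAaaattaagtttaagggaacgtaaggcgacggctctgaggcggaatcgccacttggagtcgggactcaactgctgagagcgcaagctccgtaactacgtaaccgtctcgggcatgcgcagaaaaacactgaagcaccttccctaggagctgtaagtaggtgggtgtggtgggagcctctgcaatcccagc
MARS2: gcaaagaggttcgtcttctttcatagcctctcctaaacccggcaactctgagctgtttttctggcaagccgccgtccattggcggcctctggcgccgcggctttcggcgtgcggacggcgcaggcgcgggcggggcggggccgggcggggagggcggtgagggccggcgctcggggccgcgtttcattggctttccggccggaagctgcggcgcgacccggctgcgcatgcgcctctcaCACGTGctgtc
RARS: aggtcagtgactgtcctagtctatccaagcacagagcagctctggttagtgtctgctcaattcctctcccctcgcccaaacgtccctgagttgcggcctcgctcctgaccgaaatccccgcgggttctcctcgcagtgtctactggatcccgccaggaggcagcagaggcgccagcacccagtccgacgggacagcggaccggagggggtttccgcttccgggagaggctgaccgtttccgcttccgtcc

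IARS, the isoleucine enzyme, had an E-box beginning 186 bases and a CARE core, on the opposite strand, 13 bases before the start. The YARS2 promoter, of the mitochondrial tyrosine enzyme, had a CARE core at 197 bases. An E-box lay 11 bases before the start of MARS2, the mitochondrial methionine enzyme. RARS, the arginine enzyme, had neither in this window.

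A promoter was matched for 30 of the 37 synthetases, and motifs were counted from 250 bases before to 50 bases after the start. Of these 30 genes, 23 were lower in sh-LDB1 and 16 were cytosolic. The CARE core was present in 8 of the 30 (26.7%), namely AARS, CARS, GARS, IARS, MARS, NARS, TARS and YARS2, against 4.46% of 27305 genes with a promoter and 2.45% of the 8413 of them that were tested. All 8 were among the 23 that were lower, and 7 of them were cytosolic. Among the 8, log2 fold changes ran from -1.27 for YARS2 to -0.24 for NARS. The E-box was present in 4 of the 30 (13.3%), which were CARS2, EARS2, IARS and MARS2, against 8.77% of genes with a promoter and 13.1% of those tested. The GATA motif AGATAA was found in FARSA and TARS, 6.67% of the 30, against 12.4% of genes with a promoter and 7.08% of those tested. TGATAA was found in none of the 30, against 9.22% of genes with a promoter and 4.99% of those tested. These matches describe letters in a window and do not show binding. Of the synthetases that rose, RARS and QARS had a promoter to search, which held none of the 4 motifs. In all, 18 of the 30 held none, which were these 2, 11 of the 23 that were lower and the 5 not called. Among those 11, log2 fold changes ran from -1.32 for WARS2 to -0.38 for PARS2.

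Most synthetases fell after the knockdown. At an adjusted p-value below 0.05, 27 of the 37 were lower, 3 were higher and 7 were not called, where 37.4% of all genes tested were lower and 29.9% were higher. Among the 20 cytosolic enzymes 17 were lower and 2 higher, and among the 17 mitochondrial enzymes 10 were lower and 1 higher. With all libraries scaled to the same summed FPKM, these counts were 16 lower and 3 higher among cytosolic enzymes and 8 lower and 3 higher among mitochondrial enzymes, while all genes went from 4978 lower and 3983 higher to 4047 lower and 4876 higher. The median log2 fold change was -0.60 over the cytosolic and -0.38 over the mitochondrial enzymes, beside -0.08 over all genes tested, and both medians stayed below 0 in every alternative run, at -0.43 and -0.23 with the same summed FPKM. The mitochondrial enzymes had lower levels (median 10.5 against 58.3 FPKM in sh-NC), where the 1 added to FPKM before the log2 shrinks a change more. With 0.01 added in place of 1, the medians were -0.61 for cytosolic and -0.44 for mitochondrial enzymes.

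The summed level of the cytosolic enzymes was 1235 and 1245 FPKM in sh-NC against 874 and 873 FPKM in sh-LDB1. That of the mitochondrial enzymes was 249 and 245 FPKM in sh-NC against 179 and 178 FPKM in sh-LDB1. The groups did not overlap, and the sums in sh-LDB1 were 70.4% and 72.1% of those in sh-NC, in the same order. Class I and class II are the 2 families of synthetase folds. Of the class I enzymes 14 of 18 were lower, and of class II 12 of 18, where 37.4% of all genes tested were lower. EPRS, which holds 1 domain of each class, was lower as well.

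**Figure D1:**
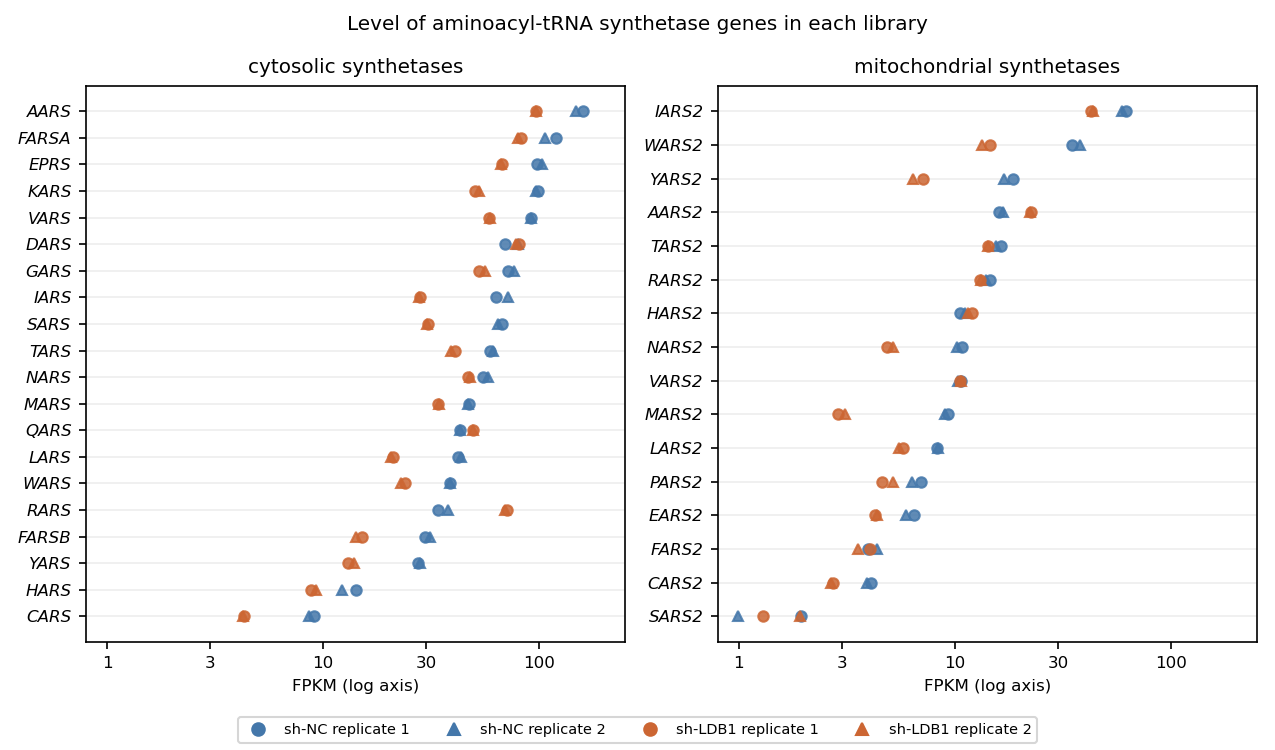
FPKM (log axis) of 36 of the 37 synthetases in each of the 4 libraries, cytosolic enzymes on the left and mitochondrial on the right, ordered by their mean in sh-NC. Most orange points (sh-LDB1) lie to the left of the blue (sh-NC), and RARS lies to the right, at 71.1 and 69.5 FPKM against 34.0 and 37.8.

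Per length of gene, AARS, the alanine enzyme, was the most abundant synthetase in both groups and SARS2 the least. AARS was at 159 and 148 FPKM in sh-NC against 96.3 and 96.9 FPKM in sh-LDB1. In sh-LDB1, FARSA and DARS followed AARS at means of 81.0 ± 1.52 and 79.2 ± 1.53 FPKM (SD, n = 2), which lie within their spread of each other. RARS moved furthest in this order, from place 18 to place 4 of 37.

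On log2(FPKM + 1), IARS, SARS, LARS, MARS2, WARS2 and YARS2 fell more than 2-fold. These were 6 synthetases, where 10.3% of all genes tested fell this far. No synthetase rose as far, which 9.5% of all genes tested did, although RARS, close to the threshold, passed it in 3 alternatives. The threshold ran through a group of like values. LARS, at a log2 fold change of -1.01, was just past it, while FARSB at -0.9999 and YARS at -0.99 were just short. Without the added 1, mean FPKM in sh-LDB1 was 48.5% of that in sh-NC for LARS and 48.4% for FARSB and YARS. CARS and NARS2, also short of the threshold, were at 48.7% and 47.8%. With a pseudocount of 0.1 in place of 1, and with voom on the recovered reads, 6 rather than 3 cytosolic enzymes fell more than 2-fold. The same runs gave 4 rather than 3 mitochondrial falls of that size.

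Among the mitochondrial enzymes, MARS2, WARS2 and YARS2 fell most. MARS2 (ENSG00000247626; chromosome 2, 197705369 to 197708395, plus strand, GRCh38) was at 9.29 and 9.03 FPKM in sh-NC against 2.87 and 3.11 FPKM in sh-LDB1. Its sh-LDB1 level was 32.6% of that in sh-NC, the lowest share among the 37. The log2 fold change was -1.35 (SE 0.0646, limma adjusted p = 0.00018). WARS2 (ENSG00000116874), the tryptophan enzyme, was at 34.7 and 38.1 FPKM in sh-NC against 14.5 and 13.4 FPKM in sh-LDB1, a log2 fold change of -1.32. YARS2 (ENSG00000139131) was at 18.6 and 16.8 FPKM in sh-NC against 7.11 and 6.42 FPKM in sh-LDB1, a log2 fold change of -1.27 (limma adjusted p = 0.00022 for WARS2 and 0.00032 for YARS2). In each of the 3 genes, both sh-LDB1 libraries lay far below both sh-NC libraries. The annotation places a lncRNA over 18.1% of the exonic bases of YARS2 on the other strand, and whether the counting used strand is not given in the sources used here.

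The other mitochondrial enzymes that fell changed less. NARS2, for asparagine, was next, at 10.8 and 10.2 FPKM in sh-NC against 4.87 and 5.18 FPKM in sh-LDB1 (log2 fold change -0.93). IARS2, for isoleucine and the most abundant mitochondrial enzyme, went from 62.2 and 59.6 FPKM to 42.8 and 43.5 FPKM, which was -0.49. LARS2 (leucine) had a log2 fold change of -0.49, EARS2 (glutamate) of -0.44 and CARS2 (cysteine) of -0.43. PARS2 (proline) was at -0.38 with an adjusted p-value of 0.014 by limma. It was not firm, because with the same summed FPKM in each library it was at -0.23 with an adjusted p-value of 0.068 (0.0066 to 0.079 over the 13 alternatives other than limma treat, which tests for a change of more than 1.2-fold). PARS2 also lost its call without sh-NC replicate 1 and without sh-LDB1 replicate 1, at -0.32 and -0.31.

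AARS2 was the mitochondrial enzyme that rose. AARS2 (ENSG00000124608; chromosome 6, 44298731 to 44313347, minus strand) charges the alanine tRNA of mitochondria. It was at 16.0 and 16.7 FPKM in sh-NC against 22.6 and 22.2 FPKM in sh-LDB1. The groups did not overlap, and the log2 fold change was 0.43 (SE 0.0472, limma adjusted p = 0.0016). It lay between 0.40 and 0.60 in the 13 alternatives, and was called in each. Exons of TMEM151B on the other strand cover 4.48% of its exonic bases.

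The cytosolic enzymes outside the multi-synthetase complex all fell, 12 of 12, where 37.4% of all genes tested were lower. The median log2 fold change of the 12 was -0.64. SARS (ENSG00000031698; chromosome 1, 109213918 to 109238182, plus strand), the serine enzyme, was at 67.3 and 64.2 FPKM in sh-NC against 30.5 and 30.3 FPKM in sh-LDB1. This gave a log2 fold change of -1.09 (SE 0.0442, limma adjusted p = 0.00014). FARSA and FARSB encode the subunits of the phenylalanine enzyme, which pair in equal numbers. FARSB was at 29.6 and 31.1 FPKM in sh-NC against 15.1 and 14.2 FPKM in sh-LDB1, a log2 fold change of -0.9999. FARSA was at 119 and 106 FPKM in sh-NC against 82.0 and 79.9 FPKM in sh-LDB1, a smaller change of -0.47.

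Of the rest outside the complex, YARS (tyrosine) had a log2 fold change of -0.99 and CARS (cysteine) of -0.89. WARS, the tryptophan enzyme, which interferon is known to induce, was at -0.69. AARS was at -0.66, VARS (valine) at -0.62, TARS (threonine) at -0.58 and HARS (histidine) at -0.50. GARS, whose gene gives the glycine enzyme of both compartments, was at -0.44. NARS, for asparagine, changed least among those that fell, at -0.24 (limma adjusted p = 0.0095), and with the same summed FPKM it was at -0.07 and not called (adjusted p = 0.23, in a range of 0.00047 to 0.23 over those 13 alternatives). It also lost its call without sh-LDB1 replicate 1 and without sh-LDB1 replicate 2, at -0.23 and -0.26.

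**Figure D2:**
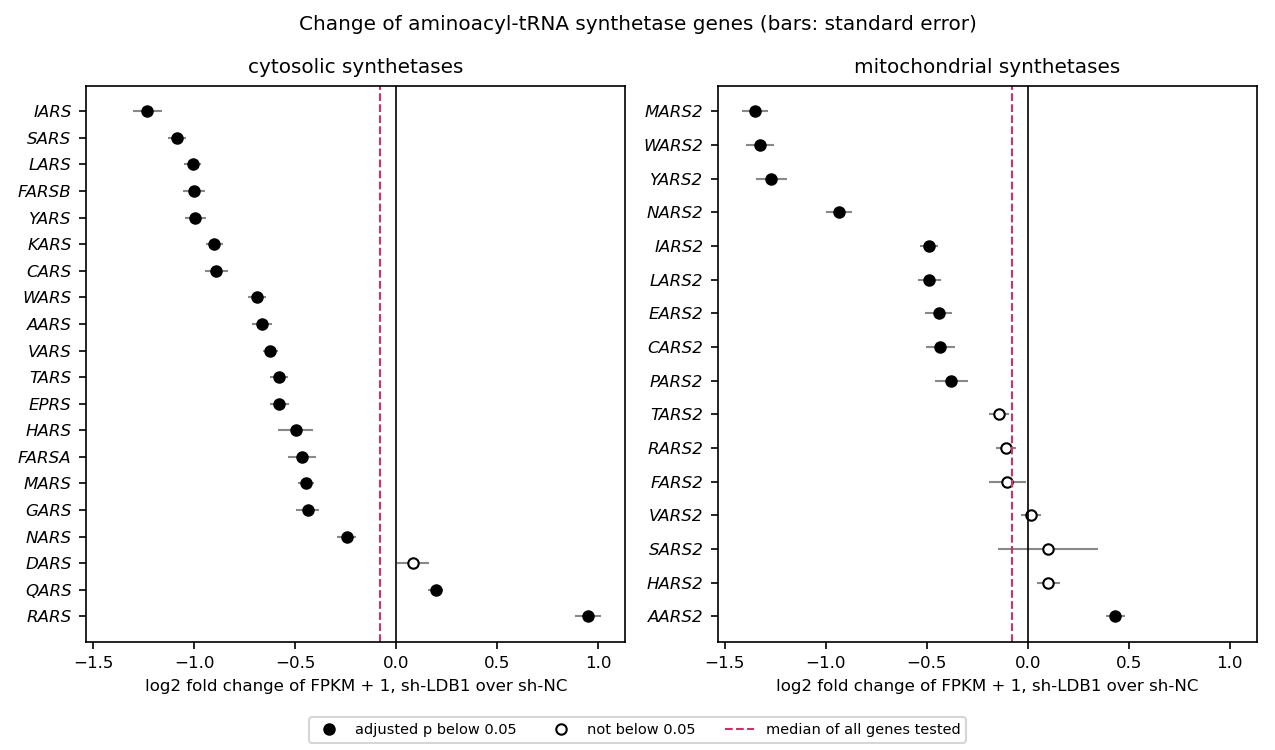
Log2 fold change of FPKM + 1, sh-LDB1 over sh-NC, of 36 of the 37 synthetases with the standard error from limma over 2 libraries a group. Filled points are called and open points are not, and the dashed line is the median of all genes tested, -0.08. Most filled points lie left of it, with RARS, QARS and AARS2 to the right of 0. The open points of TARS2, RARS2 and FARS2 change sign with the same summed FPKM in each library.

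The complex did not move as a block. Of its 8 synthetases, IARS, LARS, KARS, EPRS and MARS fell, RARS and QARS rose, and DARS was not called. IARS (ENSG00000196305; chromosome 9, 92210207 to 92293854, minus strand) was at 63.0 and 71.6 FPKM in sh-NC against 28.1 and 27.9 FPKM in sh-LDB1. Limma gave a log2 fold change of -1.23 (SE 0.0721, adjusted p = 0.00028). LARS, the leucine enzyme and known as a leucine sensor of mTORC1, was at 42.0 and 43.4 FPKM in sh-NC against 20.9 and 20.5 FPKM in sh-LDB1. KARS, whose gene gives the lysine enzyme of both compartments, was at 98.1 and 96.2 FPKM in sh-NC against 50.5 and 52.6 FPKM in sh-LDB1 (log2 fold change -0.90). EPRS, which charges glutamate and proline, had a log2 fold change of -0.58, and MARS (methionine) of -0.45.

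RARS rose most of all synthetases. RARS (ENSG00000113643; chromosome 5, 168486451 to 168519301, plus strand) was at 34.0 and 37.8 FPKM in sh-NC against 71.1 and 69.5 FPKM in sh-LDB1. Both sh-LDB1 libraries lay well above both sh-NC libraries. The mean rose from 35.9 ± 2.65 to 70.3 ± 1.08 FPKM (SD, n = 2), 1.96 times the control level, on 1885 to 3895 recovered reads per library. The log2 fold change was 0.95 (SE 0.0628, limma adjusted p = 0.00038), and it lay between 0.88 and 1.12 in the 13 alternatives. QARS (ENSG00000172053), the glutamine enzyme, rose less, from 43.0 and 42.9 FPKM to 49.4 in both sh-LDB1 libraries, with a log2 fold change of 0.20 and a limma adjusted p of 0.0096. Without either sh-LDB1 library, QARS was still at 0.20 but was not called (adjusted p = 0.071 and 0.072, in a range of 0.0015 to 0.072 over the 13 alternatives).

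The nearest genes around RARS were looked at after its rise was seen. PANK3, a pantothenate kinase gene 29194 bases away, was at 14.4 and 16.7 FPKM in sh-NC against 25.6 and 25.1 FPKM in sh-LDB1, a log2 fold change of 0.68 (limma adjusted p = 0.0020). WWC1 and FBLL1, the other neighbours, were at or near 0 in each library, FBLL1 reaching 0.329 FPKM in sh-LDB1 replicate 1.

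With these opposite changes the make-up of the complex transcripts shifted. RARS took 6.89% and 7.25% of the summed FPKM of the 8 genes in sh-NC, compared with 17.7% and 17.5% in sh-LDB1. DARS, for aspartate, had a share of 14.1% and 15.3% in sh-NC against 19.99% and 19.6% in sh-LDB1, although its level was not called. KARS went from 19.9% and 18.5% to 12.6% and 13.2%, and IARS from 12.7% and 13.7% to 7.002% and 6.995%. The shares of 1 library add up to the whole, so they are not independent of each other, and with 2 libraries a group an exact permutation test cannot go below p = 0.333. The scaffold genes fell with most of the enzymes. EEF1E1 (AIMP3) was at 24.2 and 24.5 FPKM in sh-NC against 9.95 and 8.84 FPKM in sh-LDB1 (log2 fold change -1.29, limma adjusted p = 0.00022), while AIMP2 was at -0.33 and AIMP1 at -0.20.

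**Figure D3:**
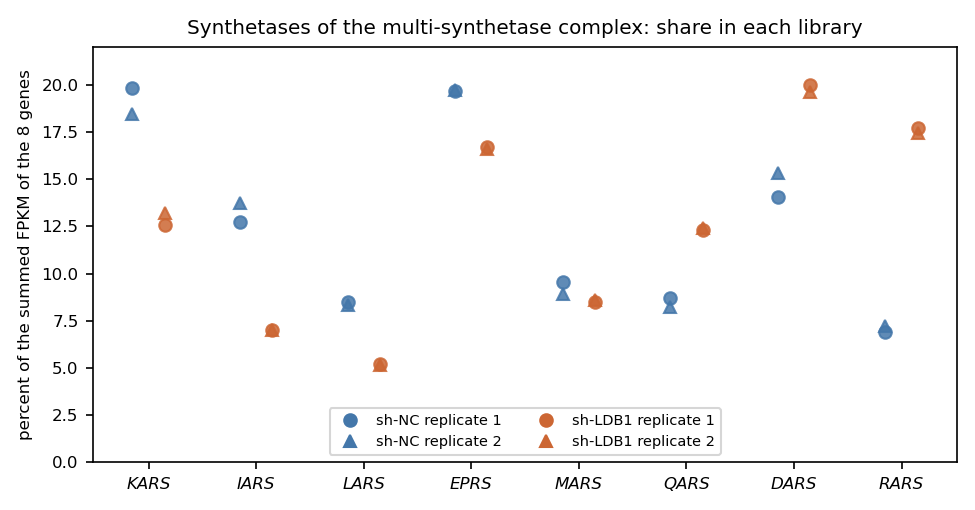
Share of each synthetase gene in the summed FPKM of the 8 synthetases of the multi-synthetase complex, in percent, in each of the 4 libraries. Genes are ordered by the change of their share, from KARS on the left, which went from 19.9% and 18.5% to 12.6% and 13.2%, to RARS on the right, which went from 6.89% and 7.25% to 17.7% and 17.5%.

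No call was made for 7 synthetases, DARS, TARS2, RARS2, FARS2, VARS2, SARS2 and HARS2. Intervals at 95% of the log2 fold change ran from -0.12 to 0.29 for DARS, from -0.27 to -0.01 for TARS2, from -0.24 to 0.03 for RARS2 and from -0.34 to 0.14 for FARS2. They ran from -0.11 to 0.15 for VARS2, from -0.04 to 0.25 for HARS2 and from -0.56 to 0.76 for SARS2. A log2 fold change of 1 in either direction on this scale of FPKM + 1 lies outside each of these intervals, while some smaller changes lie inside. For SARS2, at a mean of 1.46 FPKM in sh-NC, the added 1 shrinks a change. Its interval therefore does not exclude a 2-fold change of FPKM. With the same summed FPKM in each library, DARS at 0.26, HARS2 at 0.26 and VARS2 at 0.18 were called higher, and TARS2, RARS2 and FARS2 turned positive without a call. Without sh-NC replicate 2, DARS was at 0.19 and called (limma adjusted p = 0.028, in a range of 0.028 to 0.75 over the 13 alternatives). SARS2, the least abundant synthetase, was at 1.93 and 0.986 FPKM in sh-NC against 1.29 and 1.92 FPKM in sh-LDB1, so that its groups overlapped. Another annotated gene shares 48.2% of the exonic bases of SARS2, and a lncRNA shares 63.0% of those of VARS2, so their reads could have been split. HARS and HARS2 start 107 bases apart on opposite strands, and HARS fell while HARS2 was at 10.6 and 11.2 FPKM in sh-NC against 11.9 and 11.6 FPKM in sh-LDB1.

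To compare both compartments within a library, the log2 ratio of the cytosolic to the mitochondrial enzyme was taken for 15 amino acids, in 16 pairs because phenylalanine has 2 cytosolic subunits. The ratio was lower in sh-LDB1 in 10 pairs and higher in 6. For methionine, MARS over MARS2 was 2.35 and 2.37 in sh-NC against 3.57 and 3.46 in sh-LDB1, so the mitochondrial enzyme fell further. For arginine the ratio rose as the cytosolic gene rose, with RARS over RARS2 at 1.23 and 1.45 in sh-NC against 2.45 and 2.40 in sh-LDB1. Asparagine followed, as NARS over NARS2 went from 2.34 and 2.51 to 3.27 and 3.21.

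Alanine and isoleucine went the other way. AARS over AARS2 was 3.31 and 3.15 in sh-NC against 2.09 and 2.12 in sh-LDB1, as AARS fell and AARS2 rose. IARS over IARS2 was 0.02 and 0.26 in sh-NC against -0.61 and -0.64 in sh-LDB1, which are ratios per length of all annotated exons, and IARS held more recovered reads than IARS2 in sh-LDB1 too (9999 and 9366 against 2853 and 2742). Serine had the largest difference of the means, at -1.30, on SARS2 values that differed between replicates. In each pair named the groups did not overlap, but an exact two-sided permutation test of 2 against 2 libraries cannot go below p = 0.333, so these ratios are given without a test.

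**Figure D4:**
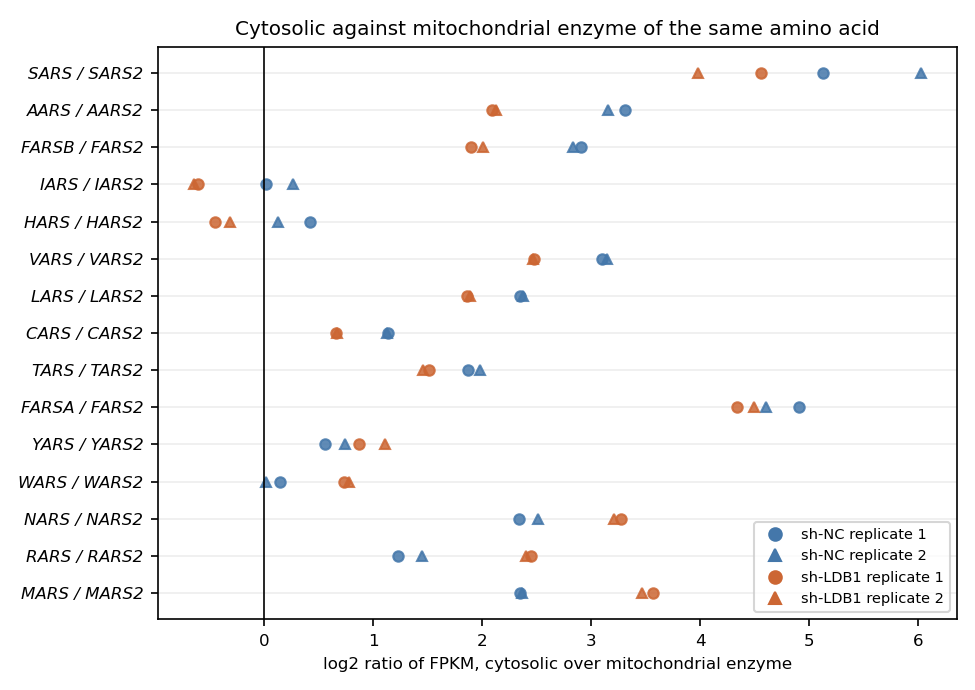
Log2 ratio of FPKM, cytosolic over mitochondrial enzyme of the same amino acid, for 15 of the 16 pairs in each of the 4 libraries, ordered from the largest fall in sh-LDB1 (top) to the largest rise (bottom). Points right of the line at 0 mean a higher transcript level of the cytosolic enzyme per length of annotated exons. The sh-LDB1 points lie left of the sh-NC points down to FARSA over FARS2 and right of them below.

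Other genes of tRNA charging and translation were set beside the synthetases, in lists written with earlier results of these data known. The median of each list but the eIF2 kinases lay below that of all genes tested. The counts of each list stand beside the 37.4% of all genes tested that were lower and the 29.9% that were higher. The mitochondrial route to glutamine tRNA has no synthetase for glutamine and ends at the amidotransferase of QRSL1, GATB and GATC. QRSL1 was at 6.74 and 7.30 FPKM in sh-NC against 3.95 and 3.03 FPKM in sh-LDB1 (log2 fold change -0.84), and GATC fell by 0.63 on the log2 scale. GATB was at -0.38 and not called, and MTFMT, which formylates the methionine tRNA that MARS2 charges, fell by 0.30.

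Among 9 synthetase-like, editing and selenocysteine genes, 3 fell and 1 rose, a share of falls close to the 37.4% of all genes tested. SEPSECS, which makes selenocysteine on its tRNA, was at 5.84 and 5.29 FPKM in sh-NC against 1.58 and 1.71 FPKM in sh-LDB1 (log2 fold change -1.31). DTD2, which removes misplaced amino acids from tRNA, was at -0.81. TARSL2, a second cytosolic threonine enzyme outside the naming rule, rose from 2.44 and 2.19 to 4.59 and 4.38 FPKM (log2 fold change 0.73), while TARS fell.

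Of 26 tested genes of the amino acid response, which ATF4 is known to induce, 13 fell and 7 rose, with a median log2 fold change of -0.27. The share that rose was near the 29.9% of all genes tested. PSAT1, of serine synthesis, was at 70.8 and 73.5 FPKM in sh-NC against 17.5 and 15.7 FPKM in sh-LDB1 (log2 fold change -2.06). CEBPB, a partner of ATF4 and a myeloid factor, rose from 19.9 and 20.8 to 83.5 and 82.6 FPKM (1.98), and NUPR1, a stress gene that passed the filter only through its sh-LDB1 level, was at 0.120 and 0.0956 FPKM in sh-NC against 2.04 and 2.55 FPKM in sh-LDB1. Of the eIF2 kinases, EIF2AK4, which encodes GCN2, was at 3.63 and 3.82 FPKM in sh-NC against 3.70 and 3.91 FPKM in sh-LDB1 and was not called. EIF2AK2, which encodes the kinase PKR, was at 0.02 and not called either. EIF2AK3, which encodes the kinase PERK, rose from 2.93 and 3.62 to 14.0 and 15.3 FPKM (1.87), and EIF2AK1, which encodes the heme-regulated kinase, fell by 0.88. PPP1R15B, a subunit of the phosphatase that reverses them, rose by 0.99 on the log2 scale.

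Transporters that bring amino acids into the cell fell in 8 of 12 cases and rose in 2, with a median of -0.54, beside 37.4% lower and 29.9% higher of all genes tested. SLC7A8 was at 38.5 and 38.1 FPKM in sh-NC against 7.38 and 7.80 FPKM in sh-LDB1 (log2 fold change -2.20). SLC7A5, the main carrier of large neutral amino acids, was at 66.2 and 64.6 FPKM in sh-NC against 17.2 and 16.7 FPKM in sh-LDB1 (-1.89). SLC7A1, which carries arginine and lysine, had a log2 fold change of -1.34.

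Beside the same 37.4% and 29.9% of all genes tested, 5 of 8 cytosolic elongation and termination factors fell and 1 rose, with a median of -0.63, led by EEF1B2 (-1.19), GSPT1 (-0.79) and ABCE1 (-0.71). Initiation factors fell in 10 of 16 cases and rose in 3, with a median of -0.39, led by EIF2B3 (-1.04), EIF4G1 (-0.78) and EIF2S2 (-0.63). In the mitochondrion, 7 of 10 translation factors fell and 1 rose, with a median of -0.50, and 7 of 8 genes of tRNA modification and processing fell and none rose, with a median of -0.60. TUFM, the elongation factor that brings charged tRNA to the mitochondrial ribosome, was at 154 and 149 FPKM in sh-NC against 79.2 and 76.5 FPKM in sh-LDB1 (-0.95), ahead of GFM2 (-0.91) and MTIF2 (-0.86). TRIT1, which modifies an adenosine of tRNA, was at -1.39, ELAC2, which trims the tRNA end, at -1.21 and TRMT10C, a subunit of mitochondrial RNase P, at -0.92.

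RNA polymerase III, which transcribes the tRNA genes, was the list closest to all genes tested. Of its 12 genes 4 fell and 2 rose, with a median of -0.10, so its share of falls was near the 37.4% of all genes tested. POLR3K was at 22.6 and 23.0 FPKM in sh-NC against 8.26 and 9.03 FPKM in sh-LDB1 (log2 fold change -1.31), and POLR3G was at -0.93. POLR3D rose from 11.8 and 11.5 to 29.6 and 29.4 FPKM (1.27). The tRNAs themselves were not measured here.

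**Figure D5:**
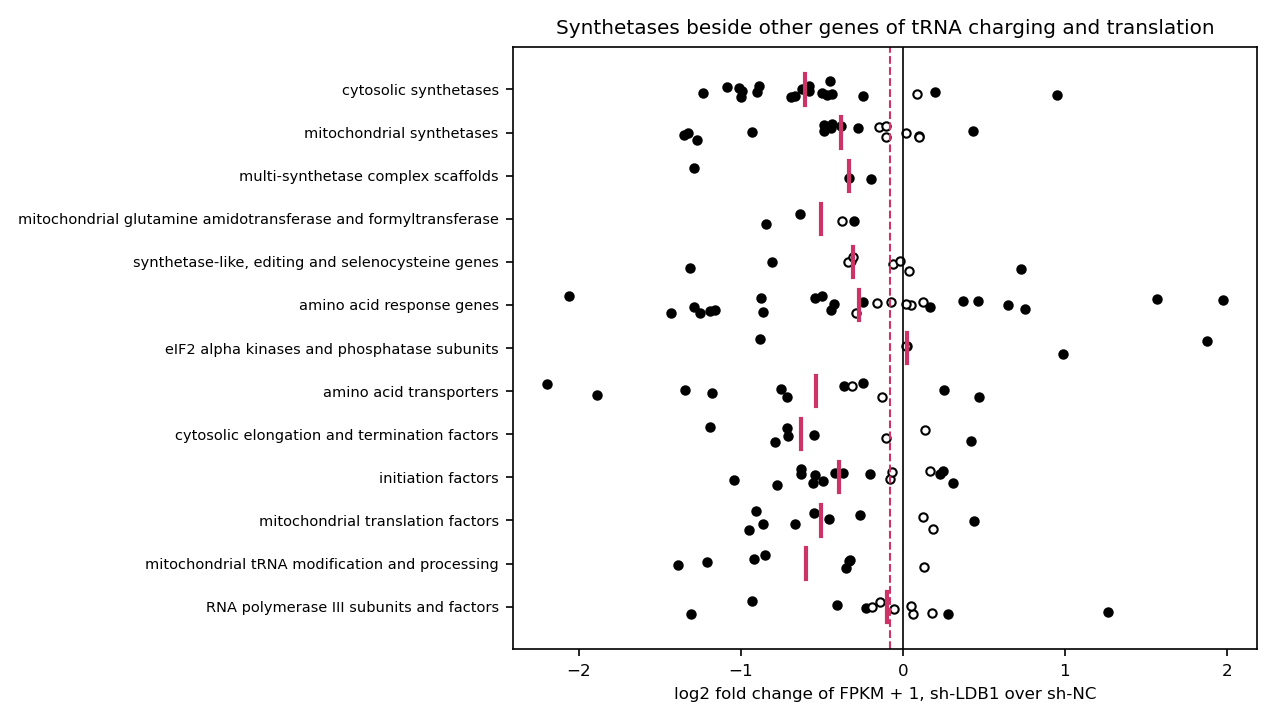
Log2 fold change of FPKM + 1, sh-LDB1 over sh-NC, of each tested gene of the synthetase classes and of the other lists. Each point is a gene, filled where called, and red bars mark the median of a list. Bars of most lists lie left of the dashed line at -0.08, the median of all genes tested, with RNA polymerase III at -0.10 and the eIF2 kinases at 0.02.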

How the data were processed

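RNA-seq was measured in 4 libraries, 2 per group, grouped and numbered by their titles. Libraries were made with an Illumina TruSeq kit. The authors mapped the reads with HISAT, version 2.0.5 of HISAT2 per the submitters' processing notes, which also name the build hg38, and called changed genes with DESeq2. The authors deposited a single table of FPKM per gene and library, with no pooling of replicates. The counting tool, gene annotation and use of strand are not given in the sources used here.

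Whole reads were recovered from the steps of the FPKM values with gene lengths from GENCODE 44, at a tolerance of 0.001 reads. This gave reads for 28406 of 28412 genes (99.98%). They were the smallest whole numbers that fit, or a multiple of those where that brought the gene length close to the annotated one. A gene's true reads may still be a multiple of the recovered reads. Intervals come from limma and rest on the spread between libraries. Replicates of a group varied beyond sampling noise (chi-square per gene 4.39 for sh-NC, 2.15 for sh-LDB1).

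Genes averaging at least 1 FPKM were tested on log2(FPKM + 1), which understates the change of low genes, with limma 3.58.1 in R 4.3.3 (eBayes with trend, no replicate block), with Benjamini-Hochberg adjustment over all 13300 genes. A call is an adjusted p below 0.05. A fold threshold of 2 was added where stated. Alternatives were another pseudocount, filter, scaling, variance model, voom on the recovered reads, limma treat with a fold of 1.2, a replicate block and leaving out each library. The limma fit and the recovery of reads were run on simulated data with known answers. In the simulated fit the spread beyond sampling noise was set alike for all genes and both groups, whereas real replicates varied more in sh-NC. Steps outside R used Python 3.11.15 with numpy 2.4.6, pandas 2.3.3, scipy 1.17.1 and matplotlib 3.10.9. Promoters came from a RefSeq table of GRCh38.p14, in which 7 synthetases had no entry.

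The synthetases and the lists were chosen with earlier results of these data known. Some items are not reported here. Named genes were every other synthetase, LDB1, LMO2, MYC and ATF4, the cell type markers, every member of a list of at most 5 genes and at most 3 called members of other lists with the largest change. The genes beside RARS were chosen after its values were seen. LMO2, the partner of LDB1, was at 24.2 and 23.2 FPKM in sh-NC against 4.34 and 4.51 FPKM in sh-LDB1.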

Additional observations from a re-analysis of the deposited data

How the results depend on the processing

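Of the 30 synthetases called, 26 were called in each of the 13 alternatives other than limma treat, and none reversed. Limma treat, which tests for a change of more than 1.2-fold, left 16 cytosolic enzymes lower and 1 higher. It left 6 mitochondrial enzymes lower, where the main fit had 10, and 1 higher. PARS2, NARS and QARS were among those that lost their call. These genes, whose values are given with them, were also among the exceptions over the 13 alternatives. A scaling to the same summed FPKM moved the median of all genes tested from -0.08 to 0.06. It gave medians of -0.43 for cytosolic and -0.23 for mitochondrial synthetases, 1 cytosolic fall and 1 cytosolic rise of more than 2-fold, and 3 higher mitochondrial enzymes. TARS2, RARS2 and FARS2, which were not called, reversed to 0.018, 0.055 and 0.037. With the median log ratio at 0, the medians were -0.52 and -0.31, 1 cytosolic enzyme rose more than 2-fold and 2 mitochondrial enzymes were higher, HARS2 being added at 0.17. Cytosolic falls of more than 2-fold numbered 6 with a pseudocount of 0.1, a pseudocount of 0.01 or voom, and the mitochondrial median was -0.44 with 0.01 and -0.45 with voom. With a filter of a mean of at least 5 FPKM, TARS2 was called lower at -0.14 (limma adjusted p = 0.048).

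Leaving out a library leaves 1 in a group, which is assumed to vary like the other group. Across these fits, cytosolic falls of more than 2-fold ranged from 2 to 5 (5 without sh-NC replicate 1), cytosolic rises of more than 2-fold from 0 to 1 (1 without sh-NC replicate 2, RARS), higher cytosolic enzymes from 1 to 3 (1 without either sh-LDB1 library, and 3, with DARS, without sh-NC replicate 2) and the mitochondrial median from -0.44 to -0.31. DARS ranged from -0.015 (without sh-NC replicate 1) to 0.19, and SARS2 from -0.18 (without sh-NC replicate 2) to 0.38, with -0.073 without sh-LDB1 replicate 2. The labels share replicate numbers but give no pairing, and deviations of same-numbered libraries had a correlation of 0.0196. With a replicate block, 17 cytosolic enzymes were lower and 2 higher, and 10 mitochondrial enzymes were lower and 1 higher, as without it, and it changed no call of a synthetase. Over all genes the block gave 4808 lower and 3890 higher. Precision is limited by 2 libraries a group, and at the lowest levels by reads, with 47 to 101 for SARS2.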
